A study of Homo sapiens with 6 samples.

Results

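The TRIM family was taken as every row of the gene table whose symbol is TRIM followed by digits and, optionally, further letters or digits, which gave 64 of 17156 genes. The read-through entries TRIM39-RPP21 and TRIM6-TRIM34, whose symbols carry a hyphen, were left out by that rule. The libraries came from SiHa, an established squamous carcinoma line of the human cervix that carries a papillomavirus genome. The shcontrol group (genotype labelled control) and the shVPS13C group (genotype labelled VPS13C knockdown) had 3 libraries each, and both had been kept in 20 µM cisplatin, a DNA-crosslinking drug, for 48 h. Cells without the drug were not analysed here, so the comparison asks only how the TRIM genes differ when VPS13C is knocked down under cisplatin. The labels do not say whether the replicates were separate cultures or how many hairpin sequences or clones were used, so the p-values measure the spread between these libraries, which may be technical.

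TRIM proteins are named for a tripartite motif: a RING finger, B-box zinc fingers and a coiled coil. The RING finger recruits an E2 enzyme loaded with ubiquitin, which makes most of these proteins ubiquitin ligases, the coiled coil joins them into dimers, and the C-terminal domain picks the substrate. The family is best known for restricting viruses and for tuning innate immune signalling, and many members are induced by interferon. Others act on chromatin, on p53, on microtubules or in autophagy. The name ubiquitin ligase does not rest on a RING finger in every member, since TRIM14, TRIM16, TRIM16L, TRIM29, TRIM44 and TRIM66 lack one. Whether each of these acts as a ligase is not settled here.

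Interferon response elements are the sequence that ties part of the family to antiviral signalling, so they are shown first. The motif, GAAA and GAAA with any 2 bases between them, searched on both strands from 250 bases before to 50 bases after the gene start in RefSeq promoters (GRCh38.p14), was found in 10 of the 49 TRIM genes with a promoter entry, which is 20.4%. Of all 27305 genes with an entry, 3.65% held it, with the first listed promoter of each gene searched in both. Of the 49, 11 have further entries. With every entry searched the same 10 TRIM genes, and 4.38% of all genes, held the motif. Of the 43 TRIM genes that were tested for a difference, 31 had a promoter entry and 8 of these held the motif. A window of 30 bases is printed for each of the 8, in the direction of the gene, with the match in capitals. A match on the opposite strand reads as TTTC and TTTC with 2 bases between them.
TRIM5 (chr11:5685082-5685111, minus strand): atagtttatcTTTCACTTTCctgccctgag
TRIM34 (chr11:5624901-5624930, plus strand): gccccaaaaaTTTCACTTTCatttctcagg
TRIM21 (chr11:4393666-4393695, minus strand): cttctgagcgGAAACTGAAAgtgaaatagg
TRIM26 (chr6:30213581-30213610, minus strand): tcccgcctgaTTTCAGTTTCcatttcgctg
TRIM14 (chr9:98119229-98119258, minus strand): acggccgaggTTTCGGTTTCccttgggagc
TRIM44 (chr11:35662730-35662759, plus strand): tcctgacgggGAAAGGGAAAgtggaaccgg
TRIM2 (chr4:153151936-153151965, plus strand): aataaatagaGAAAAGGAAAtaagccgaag
TRIM16 (chr17:15683012-15683041, minus strand): acagaggtaaGAAATAGAAAtaaagggtcc
In TRIM21 and TRIM26 a further copy overlaps the one shown. Counted from the start in the promoter table, the match begins at -27 in TRIM5, -26 in TRIM14, -35 in TRIM44, 18 in TRIM21, -194 in TRIM26 and -217 in TRIM2. In TRIM16 and TRIM34, at -80 and -90, that start lies 1360 and 5057 bases inside the annotated gene, so their matches are not upstream of it. A match in these letters is a description and no evidence that a factor binds there.

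Libraries held 15643965 to 16333424 estimated counts, and TRIM genes took 0.293% to 0.296% of them. VPS13C itself stood at 49.9, 54.9 and 49.6 CPM (counts scaled to library size) in shcontrol and at 23.6, 25.1 and 27.5 in shVPS13C, a log2 fold change of -1.02 (SE 0.065, edgeR adjusted p = 4.77e-10; exact two-sided permutation p = 0.1, the smallest that 3 against 3 allows). Of 10 squamous epithelium markers, KRT5, KRT6A and KRT14 were under 1 CPM in all libraries, and the summed level of the list was 4820 to 5006 CPM in shcontrol and 4646 to 4836 in shVPS13C, while CDH1 rose in it (log2 0.27, adjusted p = 0.00359). The sum was mainly KRT8, KRT18 and KRT17, with shcontrol means of 2179, 1260 and 1163 CPM and shVPS13C means of 2125, 1224 and 1075. TP63 and EPCAM were low, at 1.31 and 3.91 CPM in shcontrol and 1.25 and 4.68 in shVPS13C. With KRT5, KRT6A, KRT14 and TP63 low, the sum of that list is no measure of squamous identity. Of the 5 leukocyte markers in the table, PTPRC was at 0, CD3E and LYZ were under 1 CPM, CD68 lay at 54.3 to 58.4 CPM and CD14 at 22.8 to 32.5, while the sum of the list, 80.3 to 82.3 CPM in shcontrol and 88.2 to 89.7 in shVPS13C, moved with the group. CD14 rose (log2 0.34, adjusted p = 0.00513). Of 6 fibroblast markers, COL1A2, DCN, LUM and PDGFRB were under 1 CPM, with sums of 15.6 to 16.2 CPM in shcontrol and 20.1 to 22.9 in shVPS13C, and COL1A1 rose (0.43, adjusted p = 0.00171). Of 4 endothelial markers, CDH5, VWF and KDR were under 1 CPM, with sums of 2.95 to 3.32 and 2.08 to 3.93 CPM. The part of these markers in the results below was not tested.

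Levels across the family spanned more than 3 orders of magnitude. On the FPKM scale, which is set by gene length as well as by depth and so allows genes to be compared, 24 of the 43 tested members averaged 10 or more, 17 lay between 1 and 10, and TRIM34 and TRIM9 lay under 1. TRIM29, a RING-less member that is abundant in squamous epithelia and acts in the DNA damage response, was highest. Its FPKM was 220.8, 221.0 and 237.5 in shcontrol and 226.4, 228.5 and 226.8 in shVPS13C, which was 24.1% to 25.6% of the FPKM summed over all 64 genes. TRIM28, a corepressor that KRAB zinc finger proteins bring to DNA, came next with 137.9, 136.5 and 136.1 in shcontrol and 153.9, 157.8 and 150.2 in shVPS13C. Its share of the family sum lay between 14.7% and 17.1%.

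After these came TRIM8, a ligase that acts on p53 and NF-kB signalling, with a mean of 51.1 FPKM over the 6 libraries. TRIM26, a ligase of antiviral signalling, averaged 39.7, TRIM44, which carries a ubiquitin-binding zinc finger in place of the RING, 30.6, and TRIM41 27.9. TRIM47 averaged 27.4 and TRIM27, a ligase first known as the RET finger protein, 26.9. Of the 50-base stretches of TRIM47, each as long as a read, 47.1% also lie in another gene, mainly AC087289.5 on the opposite strand. Since use of strand is not given, reads there cannot be told apart and the level of TRIM47 is uncertain. Together the 8 highest genes made up 61.7% to 63.4% of the family sum in every library. The library ranges of TRIM41, TRIM47 and TRIM27 overlapped one another, while every library of TRIM44 lay just above the highest of TRIM41, at 28.8 FPKM. At 118.2 to 125.6 CPM, TRIM26 did not differ between the groups beyond its spread (log2 0.02, 95% confidence interval -0.06 to 0.11).

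**Figure D1:**
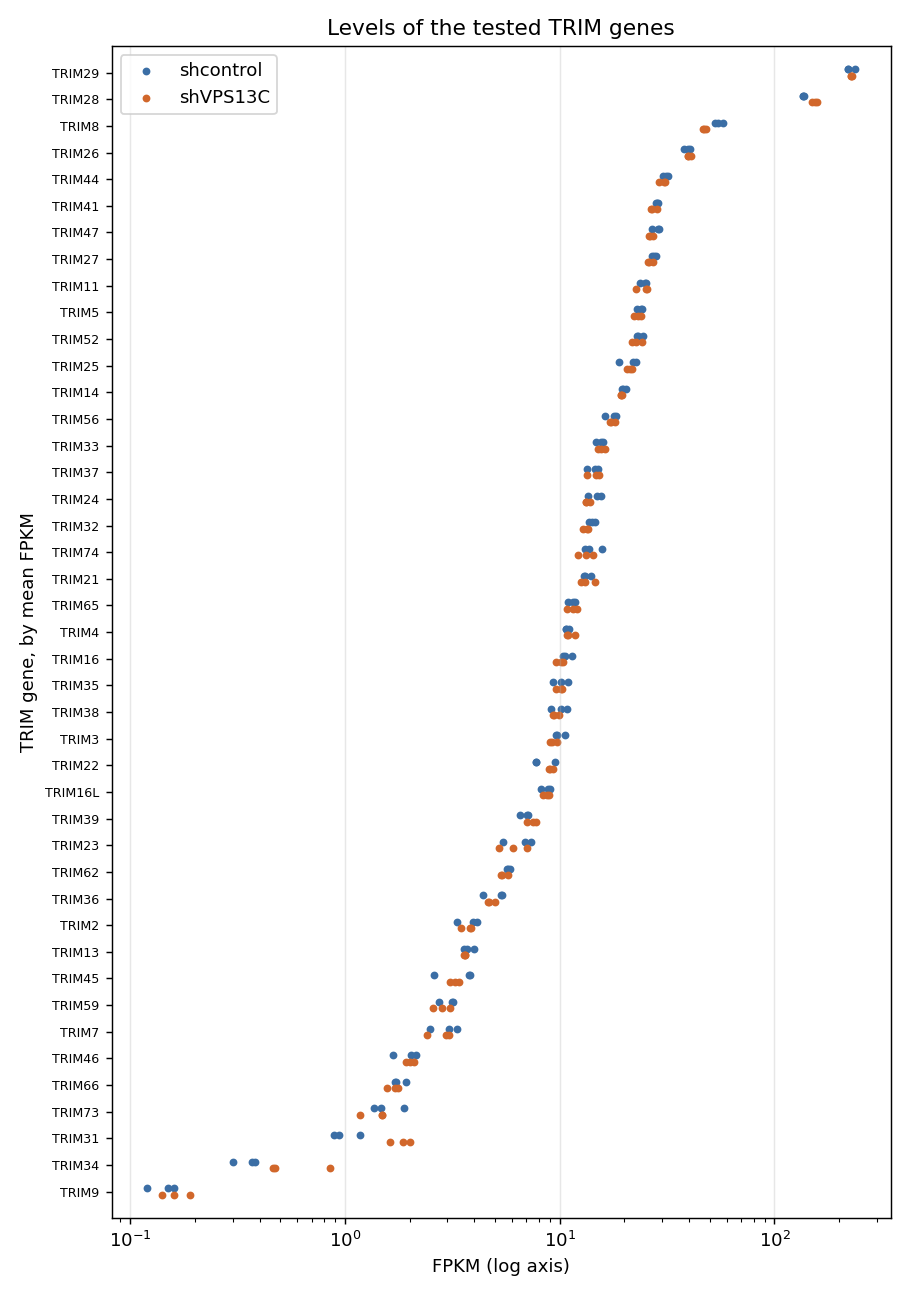
FPKM (log axis) of the 43 tested TRIM genes in each library, ordered by mean, with shcontrol in blue and shVPS13C in orange. TRIM29 and TRIM28 stand at the top with means of 227 and 145 FPKM, and TRIM9 at the bottom with 0.153.

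The low end of the family was silent or nearly so. A filter on low counts left out 21 members, whose highest count in any library was 10. TRIM49B, TRIM63 and TRIM64C had 0 counts throughout, which allows up to 0.184 to 0.192 CPM per library (3 counts, counting error only). TRIM63, together with TRIM54 and TRIM55, is a ligase of striated muscle, and the latter pair reached 5 and 8 counts. Another 13 members, namely TRIM6, TRIM10, TRIM15, TRIM50, TRIM58, TRIM67, TRIM68, TRIM69 and the near-identical copies TRIM43, TRIM43B, TRIM49, TRIM49C and TRIM49D1, had a highest count above 0 and under 5. TRIM17, TRIM71 and TRIM72 reached 10, 9 and 9.43 counts. TRIM71 is an RNA-binding member of stem cells, and TRIM72 a membrane repair protein of muscle. No fold change is given for any of the 21.

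Under VPS13C knockdown 3 TRIM genes passed the test: TRIM28 and TRIM31 rose and TRIM8 fell, while 40 did not pass. The 3 are 6.98% of the 43 tested, and over all 12671 genes tested 4.50% passed (2.27% higher and 2.23% lower), so 1 gene fewer would put the family at the level of the table. DESeq2 passed TRIM8 and TRIM28 and 342 of the 12671 genes, 2.70%. Genes that it gave no adjusted p, such as TRIM31, are counted there as not passed. In bulk RNA, fewer cells of a type and less RNA per cell cannot be told apart. At an unadjusted p under 0.05 there were 5 TRIM genes, 11.6% of those tested, where 18.9% of all genes were past it. Groups did not overlap in 9 members, 20.9%, against 23.1% of all genes. The median log2 fold change was -0.04 over the family and 0.00 over all genes, with 26 of the 43 below 0 (60.5%, against 50.4% of all genes). The median of the family was below 0 under each of the 14 alternative settings too, between -0.05 and -0.02.

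**Figure D2:**
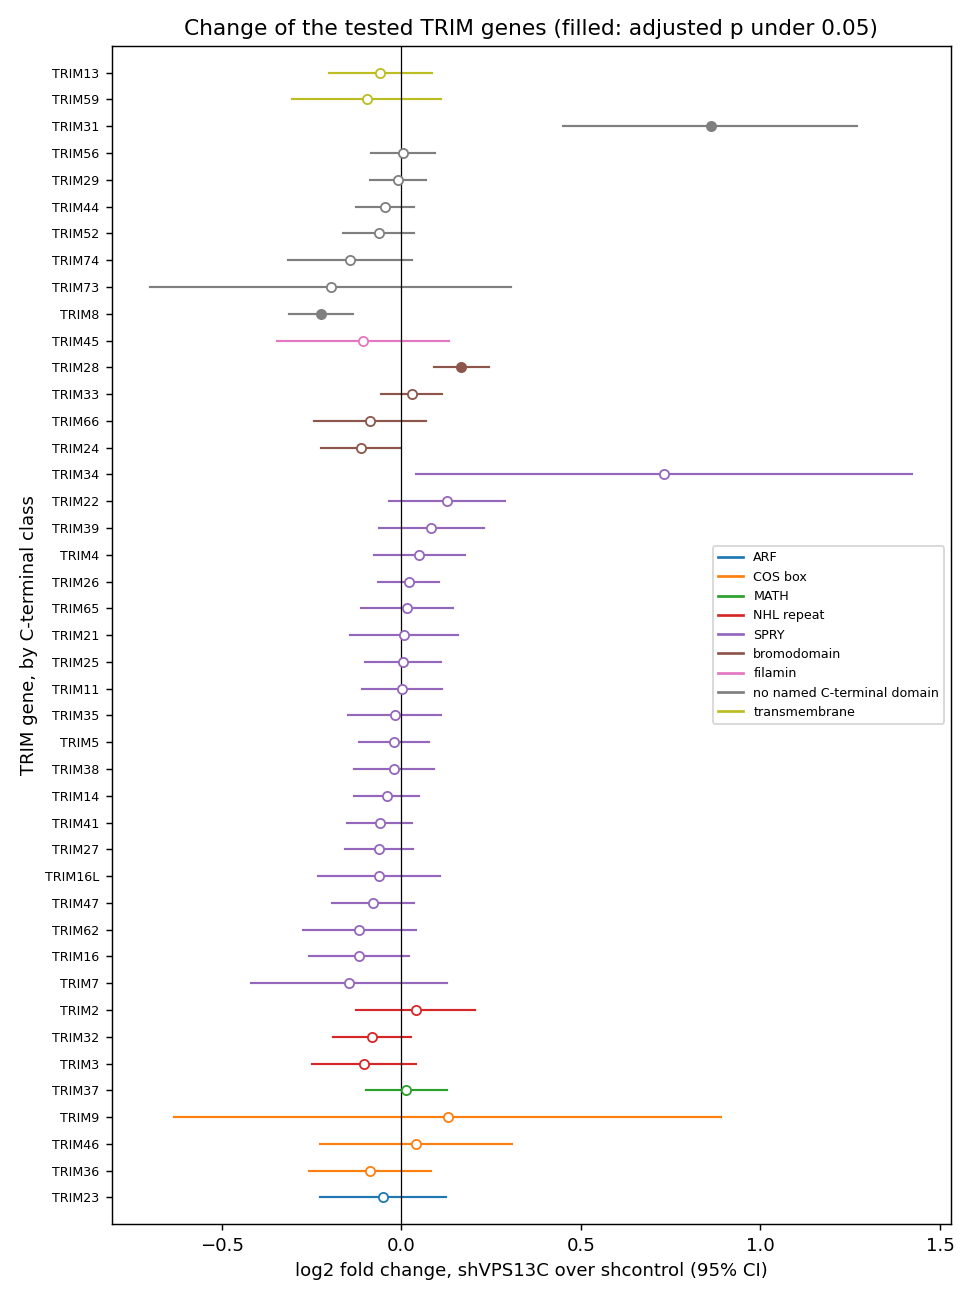
Log2 fold change of shVPS13C over shcontrol with 95% confidence interval for the 43 tested TRIM genes, coloured by the class of the C-terminal part. Filled points have an adjusted p under 0.05: TRIM28 (0.17) and TRIM31 (0.86) lie above 0 and TRIM8 (-0.22) below, while intervals are widest for TRIM9, TRIM34 and TRIM73.

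TRIM8 (Entrez 81603, chromosome 10, 102644479 to 102658319 on GRCh38) stood at 131, 134 and 144 CPM in shcontrol and at 119, 117 and 115 in shVPS13C. All shVPS13C libraries lay below all shcontrol libraries. The means were 136.5 ± 6.65 and 116.9 ± 2.14 CPM (SD, n = 3), a fold of 0.857 (log2 -0.22, SE 0.043; edgeR adjusted p = 0.00343), with a 95% confidence interval of -0.31 to -0.13. TRIM8 stabilises p53 and attaches ubiquitin chains to the kinase TAK1, a step that feeds NF-kB. The call held without each single library (highest adjusted p = 0.0297 without shVPS13C 3). Of its 50-base stretches 13.9% also lie in another gene, mainly in AL391121.1 on the opposite strand, and since use of strand is not given, reads there cannot be told apart.

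TRIM28 (Entrez 10155, chromosome 19, 58544064 to 58550715) had 406, 398 and 400 CPM in shcontrol and 451, 462 and 440 in shVPS13C. The groups did not overlap. From 401.6 ± 4.05 to 450.9 ± 11.02 CPM (SD, n = 3) it rose by a fold of 1.12 (log2 0.17, SE 0.037; edgeR adjusted p = 0.00991), with a 95% confidence interval of 0.09 to 0.24. TRIM28, also called KAP1, gathers the methyltransferase SETDB1 and heterochromatin proteins on repeats and zinc finger gene clusters, and is phosphorylated by ATM at DNA breaks. None of its 50-base stretches lies in another gene. Its call ended without shVPS13C 1 (adjusted p = 0.055) or shVPS13C 2 (0.0659).

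TRIM31 (Entrez 11074, chromosome 6, 30102897 to 30113090, minus strand) had 1.54, 1.63 and 1.99 CPM in shcontrol and 2.82, 3.17 and 3.38 in shVPS13C. These were 25, 26 and 31 counts against 46, 50 and 54, with no overlap. From 1.72 ± 0.237 to 3.12 ± 0.284 CPM (SD, n = 3) it rose by a fold of 1.82 (log2 0.86, SE 0.198; edgeR adjusted p = 0.0134), with a 95% confidence interval of 0.45 to 1.27, the largest change among the 43 tested members. TRIM31 is a ligase known from gastrointestinal epithelia, which attaches ubiquitin chains to the RNA-sensing adaptor MAVS and to the inflammasome protein NLRP3. Of its 50-base stretches 2.84% also lie in another gene, TRIM31-AS1 on the opposite strand, whose reads cannot be told apart there. The call ended without shcontrol 1 (adjusted p = 0.0505), shcontrol 2 (0.0567), shVPS13C 2 (0.0547) or shVPS13C 3 (0.072), and DESeq2 gave no adjusted p at this depth (log2 0.86, unadjusted p = 0.00216).

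**Figure D3:**
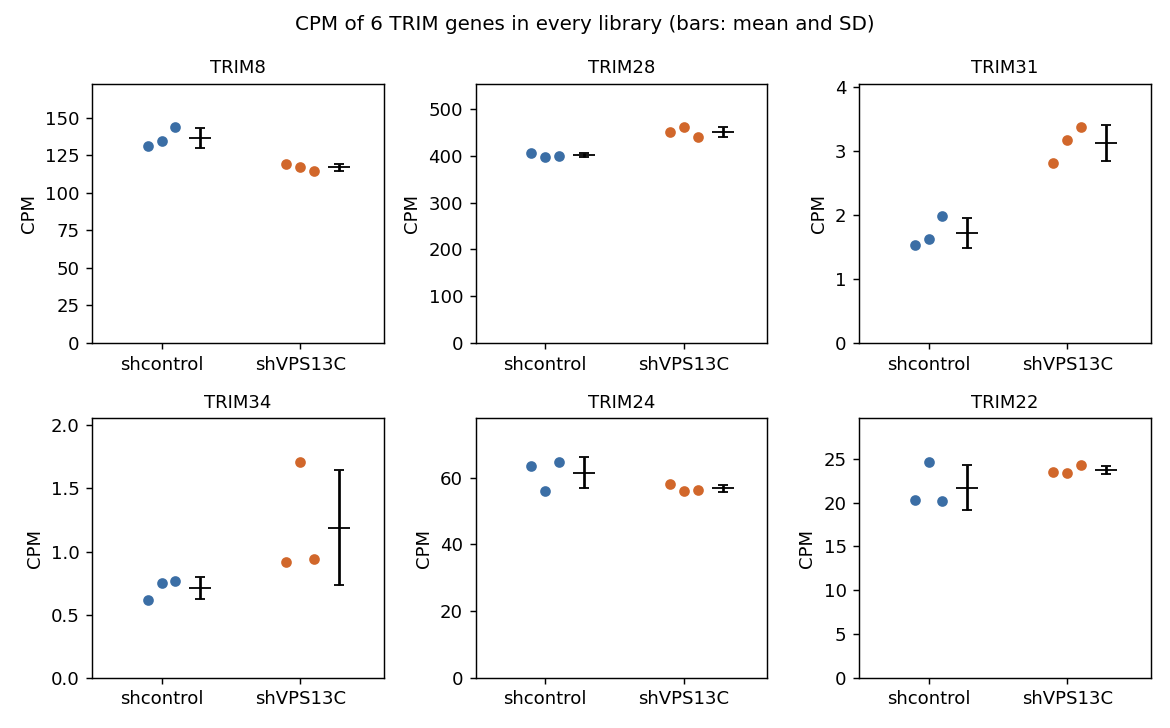
CPM in each library for TRIM8, TRIM28, TRIM31, TRIM34, TRIM24 and TRIM22, with mean and SD beside the points (n = 3 per group), on axes that start at 0. The groups lie apart in TRIM8, TRIM28, TRIM31 and TRIM34 and overlap in TRIM24 and TRIM22.

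TRIM31 is the called member whose promoter was at hand, and it is shown in full for that reason (chr6:30113041-30113340, GRCh38.p14, minus strand, 5′ to 3′ in the direction of the gene, capitals for TATAAA on the opposite strand).
TRIM31: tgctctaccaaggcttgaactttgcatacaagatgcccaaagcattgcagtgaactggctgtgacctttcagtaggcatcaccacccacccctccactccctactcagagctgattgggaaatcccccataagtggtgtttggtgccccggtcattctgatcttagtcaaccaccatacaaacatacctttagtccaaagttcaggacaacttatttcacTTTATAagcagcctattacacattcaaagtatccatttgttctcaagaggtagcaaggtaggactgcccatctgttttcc
The match to TATAAA starts 30 bases before the gene start, and 3264 of the 27305 genes with an entry hold that motif on either strand. Also searched on both strands were GGGA and TTCC with any 2 bases between them, a form of the NF-kB site (in 1.63% of all genes with an entry), and CACGTG, the E-box (7.43%). The CLEAR element of lysosomal genes, searched as the E-box with GT directly before and AC directly after it, is in 0.381%. TGATGNAA, a form of the amino acid response element, is in 3.67%, and TGACGTCA, the cyclic AMP response element, in 1.98%. None of these further strings as written, nor the interferon motif, is in the TRIM31 window. That window does hold gggaaatccc, which departs from the searched NF-kB form only by a C in place of a T. Looser forms of the NF-kB site were not searched. Among the 31 tested members with an entry the CLEAR element, the NF-kB form searched and the cyclic AMP element were in 0 of the first listed promoters. The E-box was in 3 of them (TRIM25, TRIM46 and TRIM66).

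Of 15 genes listed for antiviral defence 13 were tested, 1 rose (TRIM31), 1 fell (TRIM8) and 11 did not pass, with a median of 0.01, where 4.50% of all genes passed. On chromosome 11 lie the neighbours TRIM6, TRIM34, TRIM5 and TRIM22, the cluster that restricts retroviruses. TRIM5, whose protein binds incoming retroviral capsids, stood at 65.6, 68.6 and 68.6 CPM in shcontrol and 67.4, 64.0 and 68.5 in shVPS13C (log2 -0.02, 95% confidence interval -0.12 to 0.08, edgeR adjusted p = 0.861). Its groups overlapped. TRIM22, which holds down viral transcription, had 20.3, 24.7 and 20.2 CPM in shcontrol and 23.5, 23.4 and 24.3 in shVPS13C (0.13, -0.03 to 0.29, adjusted p = 0.4). Here shcontrol 2 lay above every shVPS13C library.

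TRIM34, the closest relative of TRIM6, had 10, 12 and 11.7 counts in shcontrol and 15, 27 and 15 in shVPS13C. All shVPS13C libraries were higher, with shVPS13C 2 well above the others, and the log2 difference of 0.73 (95% confidence interval 0.04 to 1.42, unadjusted p = 0.0385) did not pass adjustment (adjusted p = 0.232). Without shVPS13C 2 the difference was 0.38. Of its 50-base stretches 83.1% are shared with TRIM6-TRIM34, so the split between these entries is uncertain. TRIM6 had 2, 4 and 0 counts in shcontrol and 0, 0 and 2 in shVPS13C. TRIM21, the cytosolic receptor for antibody-coated viruses, had 21.8, 23.0 and 21.6 CPM in shcontrol and 21.7, 20.9 and 24.1 in shVPS13C (log2 0.01, -0.14 to 0.16, adjusted p = 0.972). TRIM25, which activates the RNA sensor RIG-I, was at 115.3 ± 10.5 and 115.7 ± 2.85 CPM (SD, n = 3; log2 0.01, -0.10 to 0.11).

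Members with the interferon motif in the printed windows gave no call, where 4.50% of all genes tested passed. At that share 8 genes are too few for 0 calls to set them apart. Over the 8, log2 differences ran from -0.12 in TRIM16 to 0.73 in TRIM34. The median was -0.01, with 4 above 0 and 0 calls by edgeR, and TRIM34 was the one with an unadjusted p under 0.05. The matches of TRIM16 and TRIM34 lie inside the annotated gene, and both genes share stretches with other entries. The rest of the 8 ran from -0.05 in TRIM44 to 0.04 in TRIM2. Over the 23 tested members with an entry and without the motif, log2 differences ran from -0.20 in TRIM73 to 0.86 in TRIM31. Of these, 9 were above 0, the median was -0.06 and there was 1 call. TRIM8, TRIM28 and TRIM22 are among the 12 tested members that were not searched.

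**Figure D4:**
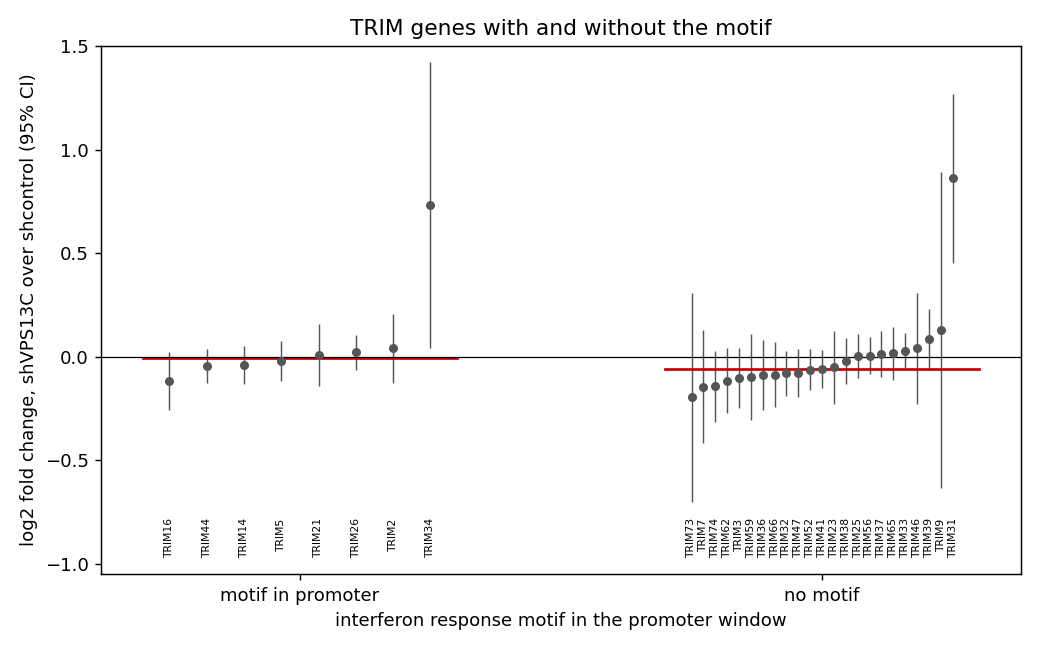
Log2 fold change with 95% confidence interval of the 31 tested TRIM genes with a promoter entry, split by whether the promoter window holds the interferon response motif; red lines mark the medians, -0.01 with it and -0.06 without it. TRIM34 on the left, whose match lies inside the annotated gene, and TRIM31 on the right are the highest points.

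The bromodomain members, which carry a PHD finger and a bromodomain in the C-terminal part, did not move as one. TRIM28 rose, and TRIM24, TRIM33 and TRIM66 did not pass. TRIM24, a nuclear receptor coregulator and a ligase of p53, had 63.5, 56.1 and 64.9 CPM in shcontrol and 58.1, 56.2 and 56.4 in shVPS13C (log2 -0.11, unadjusted p = 0.0489, adjusted p = 0.262). Its groups overlapped through shcontrol 2. TRIM33, which acts on SMAD signalling, had 116.5 ± 3.16 and 118.8 ± 1.59 CPM (0.03, 95% confidence interval -0.06 to 0.11). TRIM66 had 18.1 ± 0.474 and 17.0 ± 0.773 CPM, with groups that did not overlap and a log2 difference of -0.09 (-0.24 to 0.07) that did not pass. Of the 11 tested heterochromatin partners of TRIM28, such as SETDB1 and the HP1 genes CBX1, CBX3 and CBX5, 0 passed by edgeR and 1 had an unadjusted p under 0.05, with a median of -0.01. The shares of all genes were 4.50% and 18.9%.

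Of 7 members listed as acting on p53, TRIM28 rose, TRIM8 fell and TRIM24, TRIM29, TRIM32, TRIM39 and TRIM59 did not pass (median -0.08). By edgeR 3 of the 7 had an unadjusted p under 0.05. Over all genes tested 4.50% passed and 18.9% had an unadjusted p under 0.05. TRIM29 had 527, 512 and 546 CPM in shcontrol and 521, 522 and 531 in shVPS13C, and at this depth its interval was narrow (log2 -0.01, 95% confidence interval -0.09 to 0.07). Of 6 tested members tied to autophagy or to damaged endomembranes, TRIM28 rose and 5 did not pass, beside the same 4.50% of all genes. TRIM16, which is recruited to damaged lysosomes, had 25.7, 26.2 and 24.8 CPM in shcontrol and 24.2, 23.9 and 22.7 in shVPS13C. Its groups lay apart, with a log2 difference of -0.12 (-0.26 to 0.02) and an adjusted p of 0.363. TRIM16 shares 46.6% of its 50-base stretches with other genes, chiefly TRIM16L, a transcribed pseudogene in RefSeq, so the split of reads between the pair is uncertain.

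The NHL repeat, COS box, membrane-anchored and SPRY classes gave 0 calls by edgeR, DESeq2 or limma-trend, and the NHL repeat, COS box and membrane-anchored members had 0 with an unadjusted p under 0.05. Among the NHL repeat members, whose C-terminal propeller can bind RNA, TRIM2, TRIM3 and TRIM32 were tested and ran from -0.10 to 0.04. Among the COS box members, which bind microtubules, TRIM9, TRIM36 and TRIM46 ran from -0.09 to 0.13. The membrane-anchored TRIM13 and TRIM59 were at -0.06 and -0.10. Of the 20 tested members with a SPRY domain, the module that recognises capsids and other partners, 0 passed by edgeR, 1 had an unadjusted p under 0.05 and the median was -0.02. Over the 6 tested members without a RING finger the median was -0.05, and none was above 0 in the reported fit, while TRIM29 was above 0 in 4 of the 15 settings. Of all genes tested 50.4% were below 0, and of the tested TRIM genes 60.5%. TRIM16 and TRIM16L, both among the 6, share many stretches and are not separate observations. Of the 5 tested members listed for the region around the MHC on chromosome 6, TRIM31 rose and TRIM26, TRIM27, TRIM38 and TRIM39 did not pass (median 0.02). For all of these lists, the shares over all genes tested by edgeR were 4.50% passed and 18.9% with an unadjusted p under 0.05.

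The largest negative values after TRIM8 belonged to low or shared genes. TRIM73 had 1.70 ± 0.317 and 1.48 ± 0.195 CPM (SD, n = 3; log2 -0.20, 95% confidence interval -0.70 to 0.31), and TRIM74 had 19.3 ± 1.74 and 17.5 ± 1.51 CPM (-0.14, -0.32 to 0.03). These are near-identical copies on chromosome 7: 91.7% of the 50-base stretches of TRIM74 also lie in another gene, so their separate levels are uncertain. TRIM7, which binds proteins with a C-terminal glutamine, had 5.29, 5.08 and 5.45 CPM in shcontrol and 5.02, 4.89 and 4.38 in shVPS13C (-0.15, -0.42 to 0.13, adjusted p = 0.601), and its groups lay just apart. TRIM9, a ligase of neurons, was at 0.627 ± 0.119 and 0.686 ± 0.122 CPM, and its log2 difference of 0.13 had an interval of -0.63 to 0.89.

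For most members the data bound the size of a change. Of the 40 that did not pass, 30 had a 95% confidence interval inside 1.2-fold either way, 37 inside 1.5-fold and 39 inside 2-fold. TRIM73, TRIM34 and TRIM9 reached past 1.5-fold, and TRIM34 past 2-fold. The standard error ran from 0.037 in TRIM28 to 0.369 in TRIM9.

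**Figure D5:**
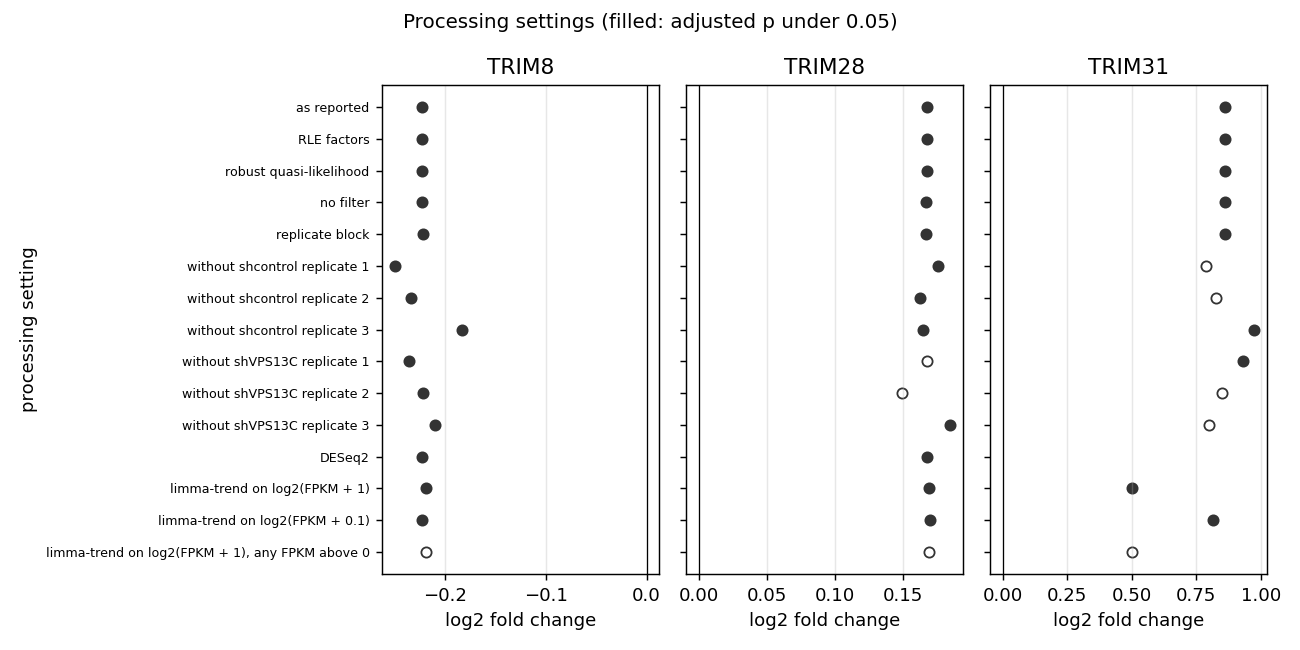
Log2 fold change of TRIM8, TRIM28 and TRIM31 as reported and under each alternative (filled points: adjusted p under 0.05; each panel has its own axis). TRIM8 stays filled except in limma-trend with no filter on FPKM, while TRIM31 is open without 4 of the 6 libraries and, with DESeq2, has no adjusted p and no point.

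Transcript estimates added no call, in a fit whose biological coefficient of variation was 0.698, against 0.035 for genes. The transcript table lists 301 RefSeq transcripts of the 64 genes; 147 from 42 genes were tested and 0 passed by edgeR, as over all 41617 transcripts tested (0.00%). At an unadjusted p under 0.05 there were 6 TRIM transcripts, where 4.93% of all transcripts were past it. Both TRIM28 transcripts were higher in each shVPS13C library. NM_005762.3 had 5119, 4951 and 4827 counts in shcontrol and 5694, 5480 and 5359 in shVPS13C (log2 0.15, adjusted p = 0.405), and XM_024451309.1 had 1484, 1405 and 1421 against 1663, 1803 and 1675 (0.25, adjusted p = 0.446). TRIM8 reads fell almost wholly to NM_030912.3, which took 97.9% to 99.2% of the gene in every library (-0.21, adjusted p = 0.471). For TRIM26, whose gene level did not pass, XM_006715180.2 had 51.8, 85.0 and 39.5 estimated counts in shcontrol and 0.15, 0 and 0 in shVPS13C (adjusted p = 0.383). That is at most 4.38% of the gene in a library, and several other TRIM26 transcripts moved by large amounts between replicates of 1 group.

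The enzymes and partners that TRIM ligases work with gave 1 call by edgeR and 0 by DESeq2 or limma-trend. Of 4 ubiquitin genes, 5 E1 enzymes and 23 E2 enzymes of ubiquitin and SUMO tested, 0 passed by edgeR, with 2 of each of the 3 lists at an unadjusted p under 0.05, where 18.9% of all genes were past it, and medians of 0.09, 0.03 and -0.02. Of 18 tested genes of cytosolic RNA and DNA sensing, their adaptors and TRIM targets, 10 had groups that did not overlap, against 23.1% of all genes. By edgeR 4 of the 18 had an unadjusted p under 0.05 and 1 passed, where 18.9% and 4.50% of all genes did. The gene that passed, TAB3, fell, and its protein binds ubiquitin chains and activates TAK1. TAB3 had 38.4, 34.8 and 37.1 CPM in shcontrol and 30.3, 29.9 and 32.8 in shVPS13C (log2 -0.25, SE 0.063, edgeR adjusted p = 0.0233), with groups that did not overlap. DESeq2 did not call it (adjusted p = 0.0638). It also lost the call when shcontrol 1 (0.0973) or shcontrol 3 (0.0518) was left out, and likewise with shVPS13C 1 (0.114) or shVPS13C 2 (0.107) left out. Of 15 interferon receptor and STAT pathway genes 0 passed by edgeR and 2 had an unadjusted p under 0.05 (median 0.00). Among 6 tested family members that carry other names 0 passed by edgeR and 2 had an unadjusted p under 0.05. One of the 6 is PML, the organiser of nuclear bodies, with 184.1 ± 8.30 and 170.5 ± 4.21 CPM (SD, n = 3; log2 -0.11, adjusted p = 0.134).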

How the data were processed

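Total RNA of SiHa cells was sequenced on the DNBSEQ platform as single-end reads of 50 bases, per the labels' protocols. Per the submitters' processing notes the build is hg38. For the aligner, counting tool, annotation and strand setting, the answer is not given in the sources used here. Per the file headers the authors deposited read counts, which are estimated counts (14.7% to 15.6% of values per library have decimals), and FPKM; both are the authors' own values, the counts unscaled. A further 30 per-sample columns and 16 columns of means were not used. Counts were rounded and filtered with edgeR filterByExpr (12671 of 17156 genes left), scaled by TMM (factors 0.996 to 1.01) and compared with the edgeR 4.0.16 quasi-likelihood test in R 4.3.3, two-sided, with Benjamini-Hochberg adjustment over all genes and a threshold of 0.05. Transcripts were fitted the same way. The biological coefficient of variation common to all features was 0.035 for genes and 0.698 for transcripts. SE was worked back from the fit, as the absolute log2 fold change over the square root of the F statistic of the test. The 95% confidence intervals are t intervals on that SE with the total degrees of freedom of the fit. CPM values are on TMM-scaled library sizes. Within a group, chi-square over its degrees of freedom between 2 libraries was 1.95 to 3.46, more than counting error gives. Intervals for counts of 0 cover counting error only. Alternatives used DESeq2 1.42.0 and limma 3.58.1. Both fits were tested on data simulated with the spread fitted to these libraries, so the test speaks only to that spread. The gene fit recovered most genes changed 1.5-fold or more, the transcript fit few transcripts. Changes of 1.2-fold were simulated too, and their recovery is not reported here.

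Genes were matched by Entrez number to RefSeq coordinates and promoters (GRCh38.p14), with 64 and 49 of 64 found; motifs were searched in the first listed promoter of each gene. Shared 50-base stretches come from GENCODE release 29 transcripts on both strands. The members, the lists and the tests were chosen with earlier results of these data known, and the classes by C-terminal part after the values were seen. Members given with values are those past the adjusted or unadjusted threshold, TRIM5, TRIM6, TRIM21, TRIM22 and TRIM34, the 8 with the highest FPKM, and the 5 largest and 5 most negative log2 fold changes; other members named were chosen after their values were seen. The listed partners with values are those past the threshold, and PML was added after its value was seen.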

Additional observations from a re-analysis of the deposited data

How the results depend on the processing

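The direction of TRIM8, TRIM28 and TRIM31 was the same under all alternatives run, and no call reversed. Of TRIM genes 3 passed with RLE factors, robust quasi-likelihood, no filter, limma-trend on log2(FPKM + 1) or on log2(FPKM + 0.1), and the replicate block. With DESeq2 2 passed, 1 higher and 1 lower, TRIM31 having no adjusted p. With limma-trend on log2(FPKM + 1) over every gene with any FPKM above 0, 0 passed, 0 higher and 0 lower (adjusted p = 0.093 for TRIM8, 0.0861 for TRIM28, 0.0833 for TRIM31). That setting called 24 of all genes, where the reported fit called 570, DESeq2 342 and limma-trend on the filtered genes 147 or, with 0.1 added, 151. Leaving out 1 library gave 1 to 3 TRIM calls, 0 to 2 higher and 1 to 1 lower, and 204 to 463 calls over all genes; the single call was without shVPS13C 2. Over TRIM genes and the partner lists together 4 genes passed, 2 with DESeq2, 0 with limma-trend on unfiltered FPKM, and 1 to 4 without 1 library. TRIM transcripts called stayed at 0 in 10 of 10 alternatives, and VPS13C was lower in 14 of 14. Deviations of libraries with the same replicate number had correlations of 0.04, -0.01 and -0.15, and those with different numbers -0.11 to 0.11. With 3 libraries per group this check cannot say whether the samples were paired. With the replicate number as a block 3 TRIM genes and 483 of all genes passed. Depth limits TRIM9 and TRIM34, with at most 13 and 27 counts in a library, and the 21 members below the filter gave no test.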
